A study of Homo sapiens with 3 samples.

Results

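Chromatin remodelers and histone modifiers are the enzymes and subunits that write, erase and reposition the marks and nucleosomes of chromatin. Here RBM17 eCLIP signal was described on the transcripts of 67 such genes. They were chosen by name, as the protein-coding genes whose symbol begins with KMT, KDM, SETD, HDAC or SMARC, or with CHD or ARID followed by a number, and which had 1 or more clusters of reads in replicate 2. Of 84 genes with such a symbol in GENCODE release 44, 67 had a replicate 2 cluster under their Ensembl identifier and 17, KMT2B among them, did not. The identifiers of replicate 2 follow an older annotation, so a gene without a cluster here need not lack signal. In the whole list of replicate 2 clusters there were 10872 genes, 9079 of them protein-coding, and these 9079 genes serve as the background throughout.

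RBM17 was profiled in K562, an established human cell line from a chronic myelogenous leukemia. The assay, eCLIP, fixes proteins to the RNA they contact by ultraviolet light, pulls down one protein with an antibody and sequences the RNA that comes with it. The 2 RBM17 eCLIP replicates were each made from cells irradiated at 400 mJ/cm2 and 254 nm, with 10 μg of an RBM17 antibody mixture, and 1 size-matched input was 2% of the sample, set aside before washing. Nothing in the labels says whether the replicates came from separate cultures. All 8 K562 genes checked had replicate 2 clusters, with 19 reads in KLF1 and 1553 in HBG2. Among genes of other blood cells, CD3E and MPO had no called cluster and PTPRC had 102 reads in clusters.

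RBM17 is a spliceosome-associated protein that acts at the recognition of splice sites together with the U2 snRNP. Histone methyltransferases of the KMT and SETD families add methyl groups to lysines, KDM demethylases and HDAC deacetylases remove methyl and acetyl groups, and SMARC, CHD and ARID proteins belong to machines that move or evict nucleosomes or to the corepressors that work beside them. Many of these genes are long and have many exons, and several are recurrently mutated or rearranged in leukemia.

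The replicates carry different values. A replicate 1 cluster has a log2 fold and a −log10 p over the input and no read count, so the depth of replicate 1 is unknown. A replicate 2 cluster has a number of reads and a peak caller p-value that involves no input, so that in replicate 2 the abundance of a transcript and its binding cannot be told apart. The list of reproducible peaks, found in both replicates, has 2 unnamed columns of values, read here from their range and order as −log10 p and log2 fold relative to the input. Each peak has 1 of each, called the value over both replicates below, with no replicate error, and how the replicates were combined is not given in the sources used here. In the 18 peaks of the genes described here, the −log10 p of the peak list was below that of the replicate 1 cluster at 15 and equal to it, to 3 significant digits, at 3. In what follows a replicate 1 cluster is called strong when its log2 fold and its −log10 p are both at least 3, and a replicate 2 cluster when its p is at most 1e-10. A gene's span runs from its first to its last replicate 2 cluster, and distances are counted along the transcript from the 5′ end of that span. Coordinates are those of hg19, counted from 1.

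Reproducible RBM17 peaks lay in the spans of 9 of the 67 genes. These were the methyltransferase genes KMT2A, KMT2C and KMT5A, the SET domain gene SETD5, the demethylase gene KDM3B and the deacetylase gene HDAC6. The others were the remodeling genes SMARCC2, CHD2 and ARID4B. The 9 genes are 13.4% of members (exact Clopper-Pearson 95% interval 6.33 to 24%, which covers counting error only), beside 4.52% of the background genes. All 7 families held at least 1 of these genes, and the 3 of the KMT family were the most. Strong replicate 1 clusters lay in 29 members (43.3%, interval 31.2 to 56.0%), beside 18.5% of the background. Strong replicate 2 clusters lay in 24 members (35.8%, interval 24.5 to 48.5%), beside 20.9%. Both kinds were found in 18 members (26.9%) and neither in 32 (47.8%). No background share is given for these counts, so they are not read as particular to the members.

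These genes also carried more reads than most. Their median was 100.0 replicate 2 reads per gene, from 3 in ARID5A to 1046 in SETD5, beside a median of 38 in the background, and 57 of the 67 were above that median. The span of a member had a median of 54.4 kb, beside 16.2 kb, and reads per kb of span had a median of 2.44 in members and 3.29 in the background. Among genes with 100 or more replicate 2 reads, 8 of 34 members had a peak (23.5%, interval 10.7 to 41.2%), beside 17.1% of such background genes. A strong replicate 1 cluster was found in 21 of these 34 (61.8%, interval 43.6 to 77.8%), beside 47.6%. With this minimum the shares of members and background were thus closer together than over all genes. Read numbers above the minimum were not matched, and the part of read depth in the shares was not tested.

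**Figure D1:**
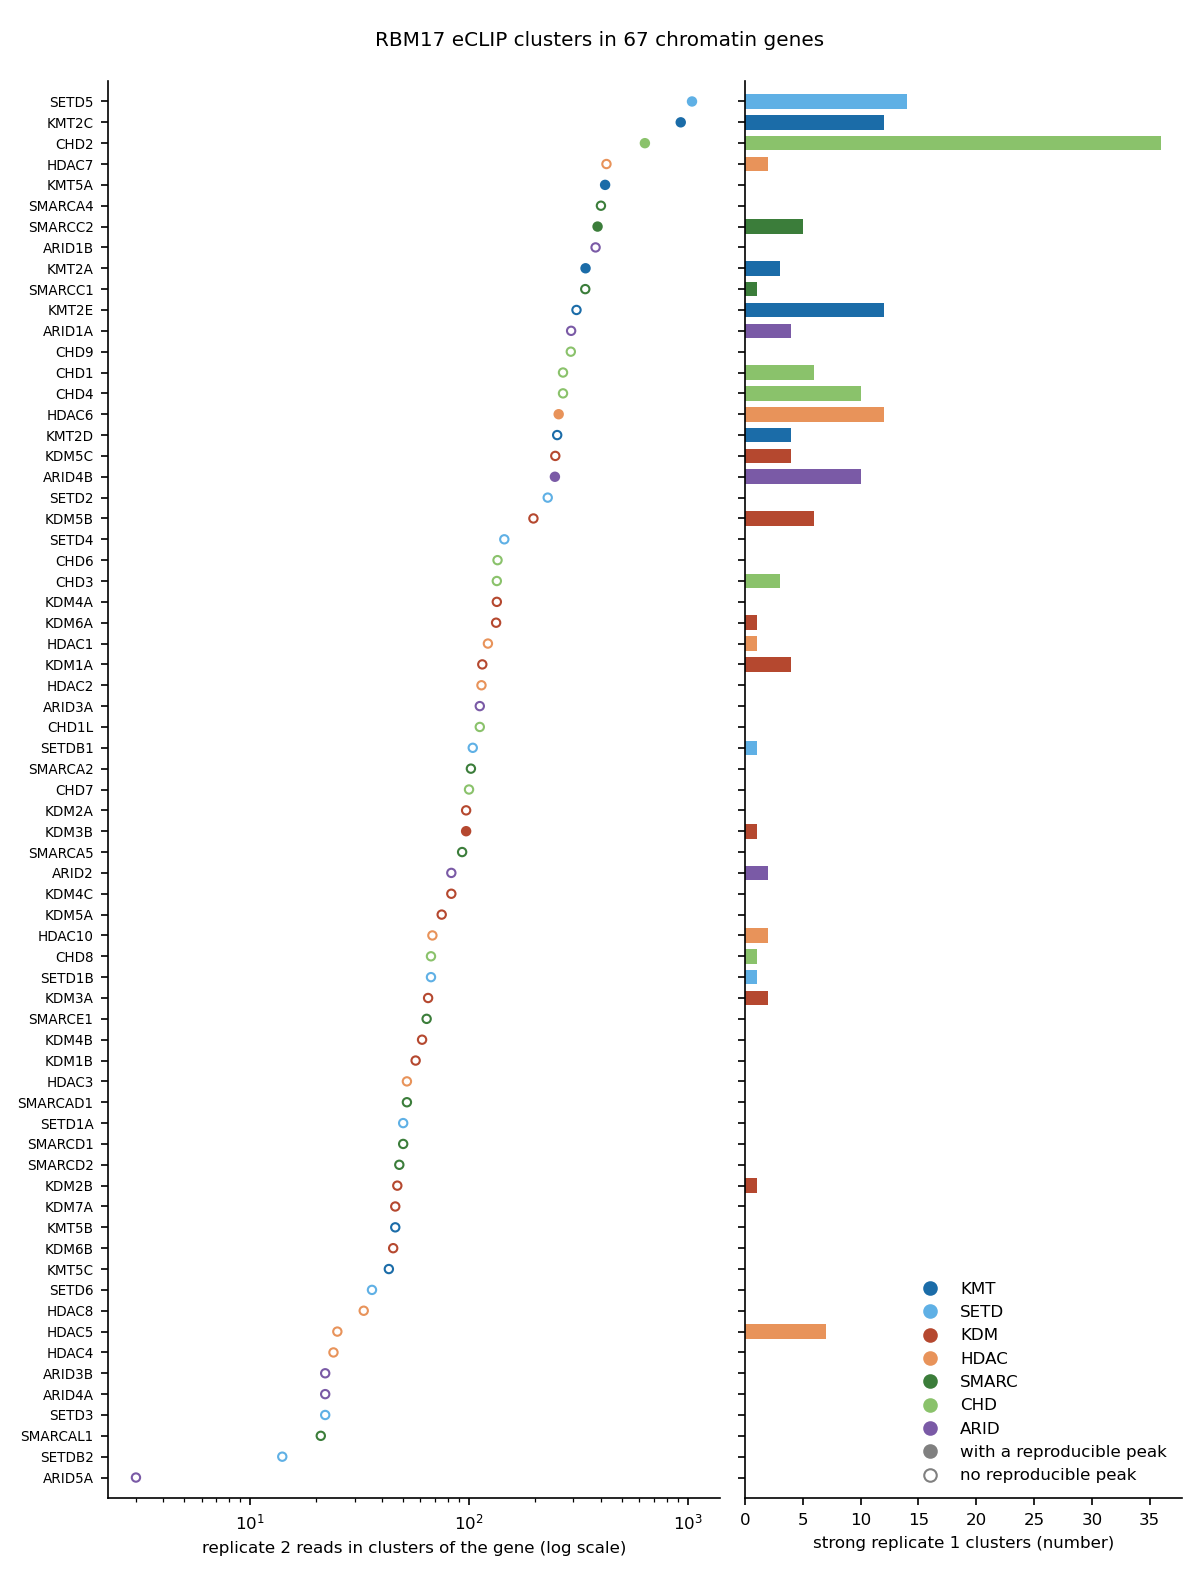
Each row is 1 of the 67 genes, ordered by its replicate 2 reads (left, log scale), with the number of its strong replicate 1 clusters (right). Filled circles are the 9 genes with a reproducible peak, and colors give the gene family. SETD5, with 1046 reads, leads the reads and CHD2, with 36, leads the strong clusters, while HDAC5 has 7 strong clusters and 25 reads.

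**Figure D2:**
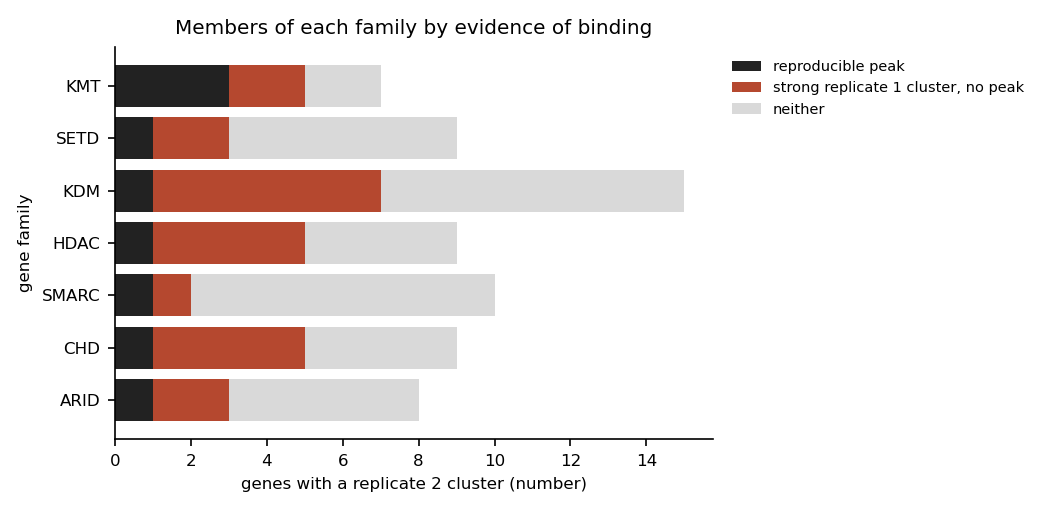
Bars show the number of genes in each family, split into those with a reproducible peak, those with a strong replicate 1 cluster and no peak, and those with neither. Of the 15 KDM genes 1 has a peak and 6 more have a strong cluster, and 8 of the 10 SMARC genes have neither. In the background 4.52% of genes have a peak and 18.5% a strong replicate 1 cluster, and differences between families were not tested.

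Among the writers, the KMT family stood highest by reads, with a median of 310 per gene in 7 genes. Of the 7, 4 had a strong replicate 1 cluster, beside 18.5% of the background genes. KMT2C, which with KMT2D adds methyl groups to histone H3 at enhancers, had 929 reads in 131 replicate 2 clusters and 184 replicate 1 clusters, 12 of them strong. Its 1 peak lay 17 bases from the start of the span (chromosome 7, 152132887 to 152133036, minus strand), in the annotated 5′ UTR. The peak had a log2 fold of 3.56 over both replicates and 3.58 in replicate 1, with −log10 p of 8.41 and 9.70, and 30 reads in replicate 2. The 2 folds were close to each other here. KMT2C has partial copies of near-identical sequence elsewhere in the genome, and reads could have been divided among them, so its counts are uncertain.

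KMT2A, the MLL gene that is rearranged in acute leukemias, had 341 reads and 3 strong replicate 1 clusters. Its peak was inside the gene, 47991 bases from the start of the span (chromosome 11, 118355627 to 118355711, plus strand), at a 5′ splice site and the coding exon beside it. The log2 fold was 3.64 over both replicates and 3.81 in the stronger of the 2 replicate 1 clusters there, and replicate 2 had 14 reads. KMT5A, the enzyme that adds a single methyl group to histone H4, had 419 reads, or 18.0 per kb of span, and 33 replicate 1 clusters of which 0 were strong. Its peak (chromosome 12, 123868868 to 123868916, plus strand) lay in an intron near a splice site, 137 bases from the start of the span. There the log2 fold was 3.20 over both replicates but 2.69 in replicate 1, with 25 replicate 2 reads, and this was the 1 peak among the members whose replicate 1 fold was below 3.

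KMT2E, a relative of KMT2A that binds methylated histone H3, showed strong signal in replicate 1 and no peak. It had 118 replicate 1 clusters, 12 of them strong, against 46 clusters and 310 reads in replicate 2. The cluster of highest −log10 p lay 893 bases from the start of the span (chromosome 7, 104655568 to 104655640, plus strand), with a log2 fold of 4.51 and a −log10 p of 10.7. It and the other 2 strong clusters of the first 1000 bases, with log2 folds of 3.31 and 3.29, overlapped no replicate 2 cluster, although replicate 2 had 28 reads in 3 clusters in that window. KMT2D had 4 strong replicate 1 clusters and 253 reads, and the cluster of highest −log10 p (6.5, log2 fold 3.89) had no replicate 2 cluster over it. KMT5B and KMT5C, with 46 and 43 reads, had no strong cluster in either replicate.

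SETD5 had the most replicate 2 reads of all 67 genes. It encodes a SET domain protein found with the HDAC3 and NCoR corepressors, and had 1046 reads, more than 99.4% of the background genes, in 75 clusters of which 21 were strong in replicate 2. Of its 66 replicate 1 clusters 14 were strong and none had a log2 fold below 0. The 4 peaks of SETD5 lay on chromosome 3, plus strand, within 1256 bases, which are 1.6% of its span of 78510 bases. That stretch held 6 of the 14 strong replicate 1 clusters and 289 of the 1046 replicate 2 reads (27.6%).

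In order along the transcript, the first SETD5 peak (9475212 to 9475248, in an intron near a splice site) had a log2 fold of 3.57 over both replicates and 3.08 in replicate 1, and 22 replicate 2 reads. The second (9475901 to 9475939, at a 3′ splice site) had log2 folds of 3.54 over both and 3.49 in replicate 1, with 35 reads. The third (9476218 to 9476246, at a 5′ splice site) had 3.78 over both and 3.71 in replicate 1, with 20 reads. The last of the group was the strongest by p. This peak (9476391 to 9476467, in the intron and at a 3′ splice site) had log2 folds of 3.90 over both and 3.85 in replicate 1, a −log10 p of 20.8 in the peak list and in replicate 1, and 81 reads. In each of the 4 the replicate 1 fold was slightly below the fold over both. Between the last 2 peaks, a further interval (9476257 to 9476328) was strong in both replicates, with a log2 fold of 3.02 and 42 reads, and is not in the peak list.

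The other SETD genes carried less. SETDB1, which methylates histone H3 at silenced loci, had 104 reads and SETD1B, a COMPASS methyltransferase, had 67, with 1 strong replicate 1 cluster each. SETD2, the methyltransferase that follows elongating polymerase, had 229 reads and 64 replicate 1 clusters with 0 strong, and 15.6% of these clusters had a log2 fold below 0. SETDB2 had 14 reads in replicate 2 and no replicate 1 cluster, as did SMARCAL1, an annealing helicase, with 21 reads, and ARID5A with 3. These 3 were the members without any replicate 1 cluster.

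Among the erasers, KDM3B was the 1 of 15 demethylase genes with a peak. It removes methyl groups from histone H3 and had 97 replicate 2 reads in 16 clusters and 31 replicate 1 clusters, of which only that at the peak was strong. The peak (chromosome 5, 137688425 to 137688529, plus strand) begins 24 bases before the span and covers the annotated 5′ UTR and the first coding sequence. Its log2 fold of 4.69 over both replicates was the highest of the 18 peaks in members, with 4.89 in replicate 1 and 13 reads in replicate 2. The median KDM gene had 83 reads, and 7 of the 15 had a strong replicate 1 cluster, beside 18.5% of the background genes.

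KDM5C and KDM5B, both demethylases of histone H3 at promoters, had strong clusters without a peak. In KDM5C the cluster of highest −log10 p lay in the body of the gene (chromosome X, 53245012 to 53245124, minus strand), with a log2 fold of 3.74, a −log10 p of 11.2 and 13 reads in the replicate 2 cluster over it. In KDM5B 5 of 6 strong replicate 1 clusters lay at the start of the span, within its first 1000 bases, with log2 folds of 3.44 to 4.19. Replicate 2 clusters of 9, 5 and 4 reads lay over 3 of these 5. KDM1A, the flavin-dependent demethylase of the CoREST complex, had 115 reads and 4 strong clusters, and the one of highest −log10 p (8.91, log2 fold 4.28) overlapped no replicate 2 cluster. None of the KDM genes without a peak reached both limits at 1 place.

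HDAC6 had 5 peaks, the most of any member, in a span of only 15818 bases. HDAC6 is a mostly cytoplasmic deacetylase of tubulin, and had 257 reads (16.2 per kb) in 23 replicate 2 clusters and 27 replicate 1 clusters, of which 12 were strong and none had a log2 fold below 0. The peaks fell into a pair near the 5′ end and 3 toward the 3′ end (chromosome X, plus strand). At the 5′ end, the peak at 48661343 to 48661407, in coding sequence, had a log2 fold of 3.07 over both replicates, 3.32 in replicate 1 and 20 replicate 2 reads. Its neighbour at 48661534 to 48661588, at a 3′ splice site and its exon, had a log2 fold of 4.05 over both, 4.28 in replicate 1 and 18 reads.

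Farther along HDAC6, the peak at 48673181 to 48673234 had a log2 fold of 3.98 over both replicates, 3.45 in replicate 1 and 14 reads. The peak at 48674069 to 48674122, at a 5′ splice site, had a log2 fold of 3.88 over both, 4.48 in replicate 1 and 13 reads. The last, at 48674286 to 48674371, at a 3′ splice site and its exon, had a log2 fold of 4.34 over both, 4.58 in replicate 1 and 23 reads. The stretch of 1191 bases with these 3 peaks held 6 of the 12 strong replicate 1 clusters and 75 of the 257 reads (29.2%), and the stretch of 246 bases with the 5′ pair held 2 strong clusters and 38 reads (14.8%). Of the 12 strong clusters 10 overlapped a replicate 2 cluster, against 71 of 168 strong clusters over all members.

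HDAC7 and HDAC5, both class IIa deacetylases, differed from HDAC6 in opposite ways. HDAC7 had 425 reads, more than HDAC6, and 8 strong replicate 2 clusters, yet 2 of its 36 replicate 1 clusters were strong. At one of them (chromosome 12, 48185837 to 48185924, minus strand) the log2 fold was 3.04 and the −log10 p 6.51, and replicate 2 had 42 reads. HDAC7 was the only member that was strong in both replicates at 1 place and had no peak. HDAC5 had 53 replicate 1 clusters, 7 of them strong, with log2 folds of 4.00 to 5.05, but only 7 clusters and 25 reads in replicate 2. None of the 7 strong clusters overlapped a replicate 2 cluster, and the ratio of 7.57 replicate 1 to replicate 2 clusters compares with a median of 1.29 over members.

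HDAC1 and HDAC2, the catalytic subunits of NuRD and SIN3, had 122 and 114 reads, with 1 and 0 strong replicate 1 clusters, and 25% of the 40 replicate 1 clusters of HDAC2 had a log2 fold below 0. In HDAC8, 17 of the 33 reads and its only strong replicate 2 cluster lay in an interval also listed for the small nuclear RNA copy RNU2-68P (chromosome X, 71596894 to 71596922), where replicate 1 had a log2 fold of 1.68. Reads of the host gene and of the embedded copy cannot be told apart there.

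Among the remodelers, SMARCC2 was the 1 of 10 SMARC genes with a peak. SMARCC2 and SMARCC1 form the scaffold of the BAF complex. SMARCC2 had 387 reads in 26 replicate 2 clusters and 53 replicate 1 clusters, 5 of them strong. Its peaks lay 7371 and 7667 bases along the span (chromosome 12, minus strand), each covering a splice site and coding sequence. The peak at 56572576 to 56572631, at a 5′ splice site, had a log2 fold of 3.32 over both replicates, 3.13 in replicate 1 and 22 replicate 2 reads. The peak at 56572263 to 56572335, at a 3′ splice site, had a log2 fold of 4.21 over both, 4.05 in replicate 1 and 28 reads. Both were strong in both replicates. All 26 SMARCC2 clusters lie within the span of a second gene on the same strand, ENSG00000258199. Of the 387 reads, 140 are in intervals listed under more than 1 gene, where the genes cannot be told apart. For the other reads the assignment to SMARCC2 rests on its identifier in the list.

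SMARCA4, the BRG1 ATPase of the BAF complex, had many reads in replicate 2 and 0 strong clusters in replicate 1. It had 401 reads, 48 clusters in each replicate and 7 strong replicate 2 clusters. Its replicate 1 clusters had a median log2 fold of 1.39, beside 1.51 in the background, and reached 3.36. Their highest −log10 p was 2.11. SMARCC1, with 340 reads, had 7 strong clusters in replicate 2 and 1 in replicate 1, with a log2 fold of 3.10. The other 7 SMARC genes, with 21 to 102 reads, had no strong replicate 1 cluster. In SMARCE1, 58 of the 64 reads overlap the span of a second gene, and 39 are in intervals listed under more than 1 gene.

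CHD2 had 36 strong replicate 1 clusters, the most of any member, and the 2 peaks in its span lay near its 5′ end. CHD2 is a chromodomain helicase whose loss causes a childhood epilepsy, and it had 637 reads in 97 replicate 2 clusters and 125 replicate 1 clusters. The peaks (chromosome 15, plus strand) lay at 93426361 to 93426435 and 93426678 to 93426747. The first had a log2 fold of 4.31 over both replicates, 5.14 in replicate 1 and 13 replicate 2 reads, and the second had 4.60 over both, 5.62 in replicate 1 and 15 reads. The −log10 p of the second was 37.9 in replicate 1, the highest of any cluster in a member, against 4.22 over both replicates. In the first 1000 bases all 9 replicate 1 clusters were strong, and the other 27 strong clusters were spread along the span. The study's annotation gives the first of them to a noncoding exon of LINC01578 and AC013394.2, not to CHD2. It gives the second to the 5′ UTR of CHD2. In GENCODE, CHD2 runs from 92886203 to 93027996 in hg38. The span of 142834 bases is longer than that, so part of it lies outside CHD2. The noncoding gene CHASERR (92819540 to 92899701) overlaps the start of CHD2 on the same strand. Positions were not converted between assemblies, so beyond the study's annotation it was not determined by position whether the peaks lie in CHD2 or only in CHASERR. Where the 2 genes overlap, reads of CHD2 and of that RNA cannot be told apart.

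CHD4, the ATPase of the NuRD complex, had 269 reads and 10 strong replicate 1 clusters of 36, all within 12658 bases of the start of a span of 37096. The cluster of highest −log10 p (chromosome 12, 6711376 to 6711455, minus strand) had a log2 fold of 4.14 and a −log10 p of 8.0, with no replicate 2 cluster over it. The replicate 2 cluster with the most reads lay elsewhere, in an interval also listed for SCARNA11, a small Cajal body RNA (6690637 to 6690714), with 31 reads. There replicate 1 had a log2 fold of −3.19, below the input. A similar position in CHD8 is shared with SNORD8, a small nucleolar RNA, with 15 of the 67 reads of the gene and a replicate 1 log2 fold of −0.95. CHD1, which binds methylated histone H3, had 269 reads and 6 strong replicate 1 clusters, the one of highest −log10 p (6.80, log2 fold 3.94) over a replicate 2 cluster of 8 reads.

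ARID4B, a subunit of the SIN3 corepressor, had 10 strong replicate 1 clusters, of which 8 began within 1232 bases of the start of the span. Only the first of them lay over a replicate 2 cluster, and it was the peak (chromosome 1, 235491377 to 235491466, minus strand, annotated 5′ UTR). Its log2 fold was 3.05 over both replicates, the lowest of the 18 peaks, and 3.62 in replicate 1, with 15 reads. The next clusters reached higher values in replicate 1 alone, up to a log2 fold of 5.32 and a −log10 p of 20.3 at 235490391 to 235490470. Of the 247 reads of ARID4B, 58 overlap the span of RBM34, and 43 are in intervals listed under more than 1 gene.

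The ARID subunits of BAF and PBAF had no peak. ARID1A, often mutated in cancer, had 293 reads, and the strongest of its 4 strong replicate 1 clusters (chromosome 1, 27089418 to 27089483, plus strand) had a log2 fold of 5.14 and a −log10 p of 9.0 with no replicate 2 cluster over it. ARID1B had 379 reads and 5 strong replicate 2 clusters, but its 44 replicate 1 clusters reached a log2 fold of at most 2.51. ARID2 had 83 reads and 2 strong replicate 1 clusters. The one of higher −log10 p (7.11) had a log2 fold of 4.83 and lay over a replicate 2 cluster of 3 reads.

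**Figure D3:**
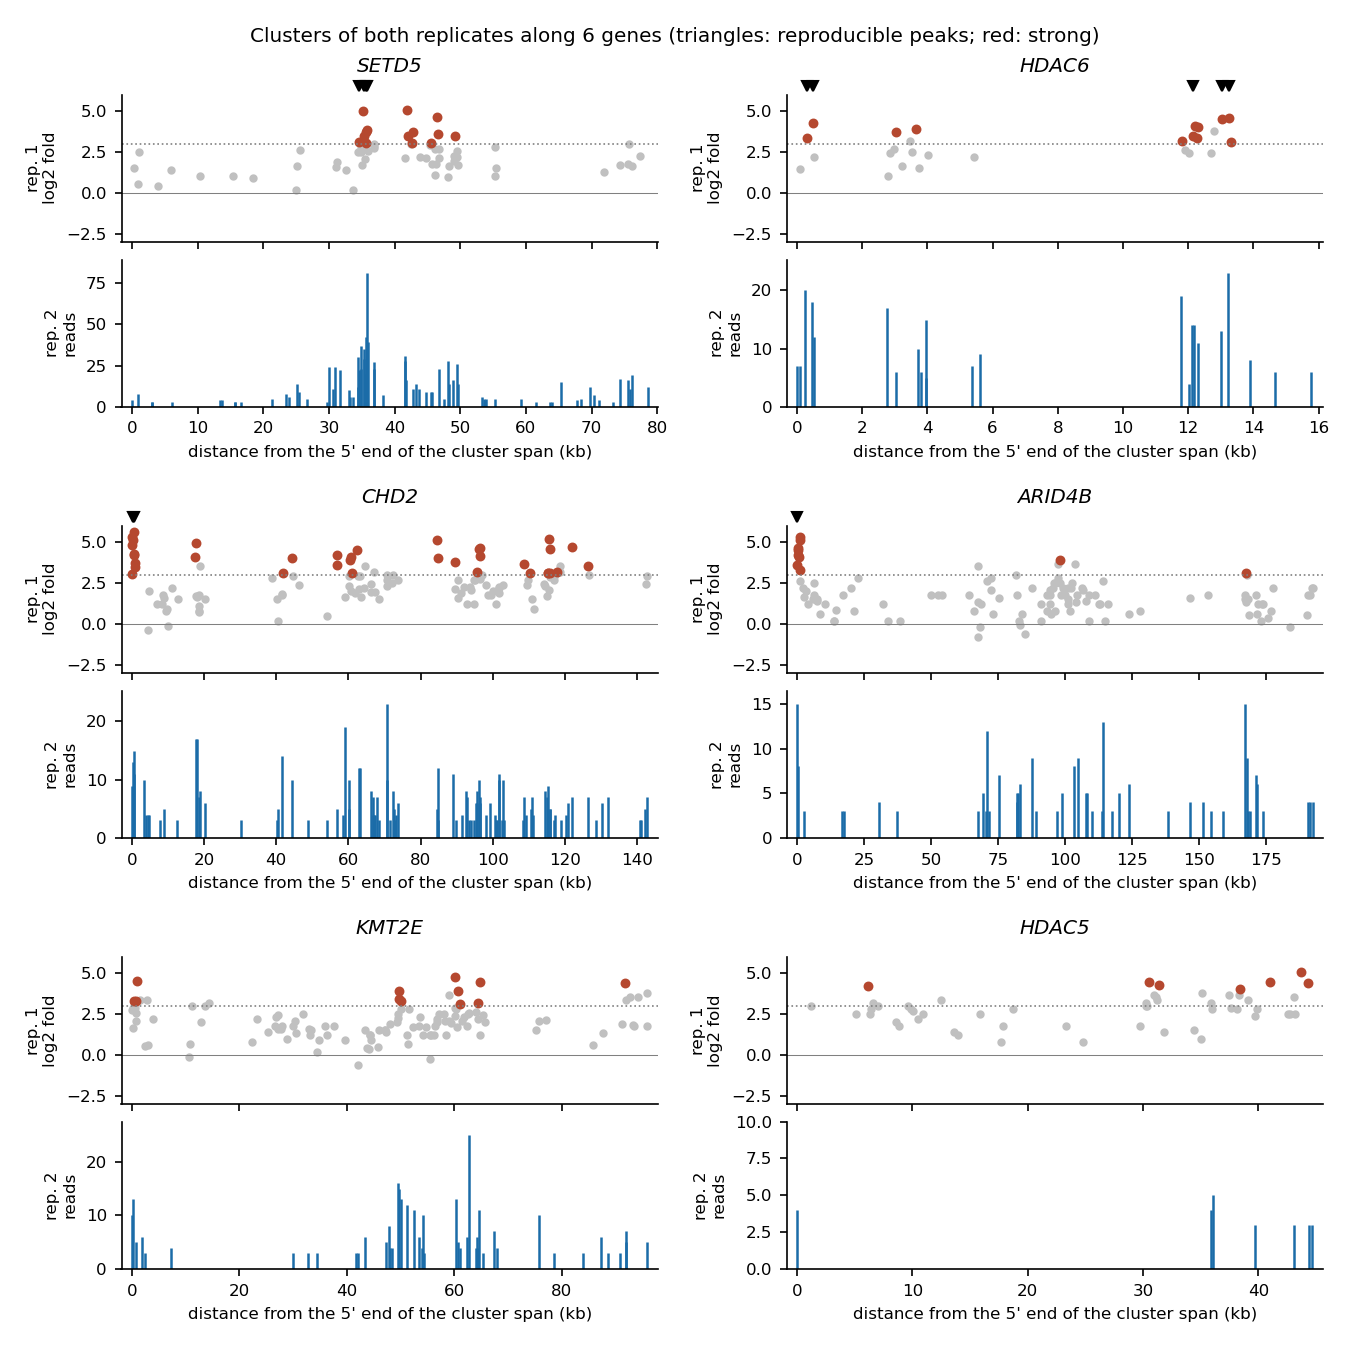
Clusters along 6 genes, from the 5′ end of the cluster span in kb: upper panels give the log2 fold over the input of each replicate 1 cluster, lower panels the reads of each replicate 2 cluster. Red points are strong, gray points above the dotted line at 3 have a −log10 p under 3, and triangles mark peaks. In SETD5 and HDAC6 red points and tall bars stand together, whereas in HDAC5 7 red points stand over 7 replicate 2 clusters of at most 5 reads, none of them at the same place.

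The 18 peaks had log2 folds of 3.05 to 4.69 over both replicates, with a median of 3.83 beside 3.80 for all 866 peaks of the series. In replicate 1 alone the clusters over them lay between 2.69 and 5.62 (median 3.76) and were above the value for both replicates at 10 peaks. The replicate 2 clusters over them had 13 to 81 reads with a median of 20. The peaks were 29 to 150 bases long, with a median of 67.5, beside 60 for all peaks. In size and fold these peaks were thus near the middle of the list, which the study limited to log2 folds above 3. With a log2 fold of at least 4 there remained 6 peaks in HDAC6, KDM3B, SMARCC2 and CHD2, and with a −log10 p of at least 5 there remained 8 in KMT2C, HDAC6, SMARCC2 and SETD5.

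**Figure D4:**
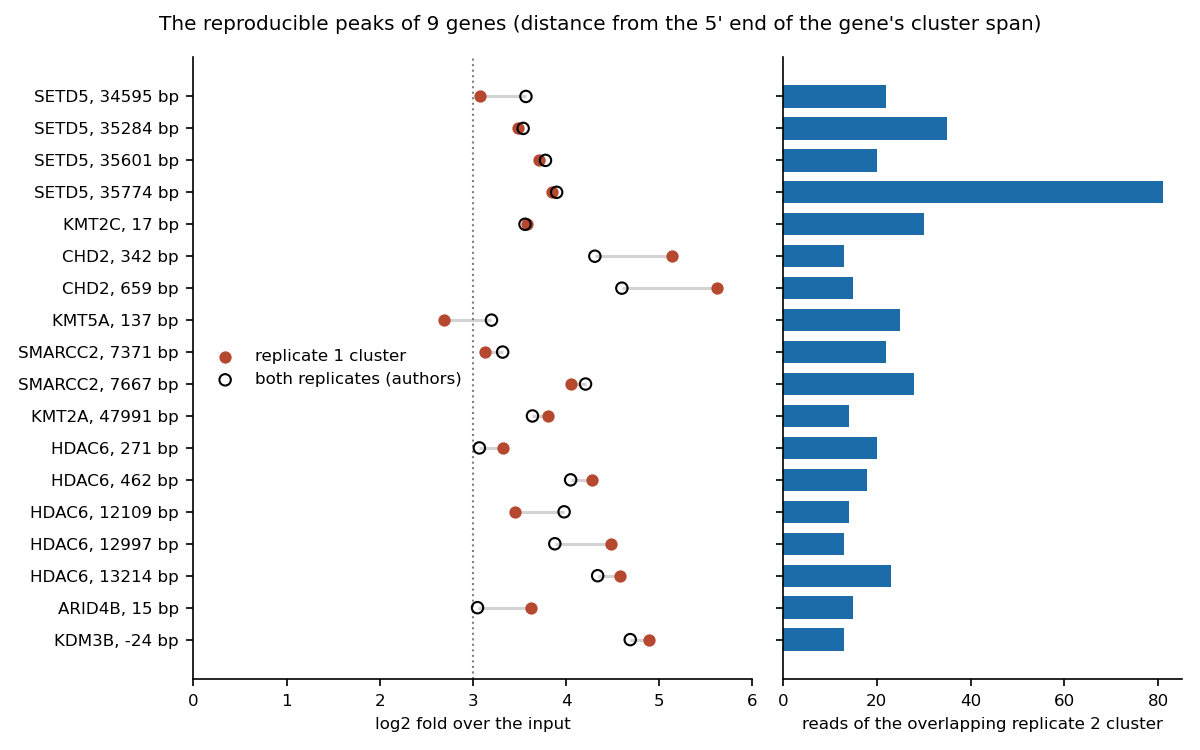
For each of the 18 reproducible peaks, labelled by gene and distance from the 5′ end of the span, the left panel gives the log2 fold over the input in replicate 1 (red) and over both replicates (open), and the right panel the reads of the overlapping replicate 2 cluster. The dotted line marks a log2 fold of 3, and the bar of 81 reads is the last SETD5 peak. The CHD2 peaks lie farthest to the right in replicate 1, at 5.14 and 5.62, and KMT5A alone lies below 3 there, at 2.69.

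Several peaks lay near the 5′ end of the replicate 2 cluster span, which need not be the start of an annotated transcript. Of the 18 peaks, 8 began within 1000 bases of the 5′ end of the span (44.4%, interval 21.5 to 69.2%), in 6 of the 9 genes (66.7%, interval 29.9 to 92.5%): ARID4B, KMT2C, KDM3B, CHD2, KMT5A and HDAC6. The KMT5A peak there is annotated to an intron and the HDAC6 peaks to coding sequence. The study gives the first peak of the CHD2 span to a noncoding exon and not to CHD2. Peaks and clusters at the start of that span may lie outside CHD2, in CHASERR, as given above. Of the 410 background genes with a peak, 36.3% had one there, and 30.7% of their peaks did. Strong replicate 1 clusters gave a different order. In members 29 of 168 began in that window (17.3%, interval 11.9 to 23.8%), beside 23.3% in the background, and over all replicate 1 clusters the shares were 4.80% and 9.46%. The 29 came from 9 genes, with 9 from CHD2 and 5 each from ARID4B and KDM5B, and without CHD2 and ARID4B the share was 12.3%. Intervals over peaks and clusters treat them as independent, which those of 1 gene are not. Members have longer spans than the background, as given above, so a window of fixed length covers less of each.

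Over all members, replicate 1 had 2417 clusters and replicate 2 had 1703, with 11408 reads. Of the replicate 1 clusters 168 were strong (6.95%, interval 5.97 to 8.04%), beside 5.77% in the background, and 125 had a log2 fold below 0 (5.17%, interval 4.32 to 6.13%), beside 10.9%. The median log2 fold was 1.77 in members and 1.51 in the background. The value 1.77 recurs in single clusters, as in ARID1B with a −log10 p of 0.46, and a difference between these medians was not tested. By family, the share below 0 ran from 2.48% in the KDM to 7.65% in the ARID genes, and the median log2 fold from 1.19 in the SMARC to 2.19 in the HDAC genes. Clusters of 1 gene share its transcripts and library, and are not independent.

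The number of clusters per gene was correlated between the replicates, while most single clusters of replicate 1 had no counterpart in replicate 2. Across the 67 genes this number had a Spearman correlation of 0.82 and a Pearson correlation of 0.85 between replicates, beside a Spearman correlation of 0.87 across the background, and it also correlated with the length of the span (0.50 in each replicate). Of the 2417 replicate 1 clusters, 586 overlapped a replicate 2 cluster of the same gene (24.2%, interval 22.5 to 26%), beside 29.1% in the background. Of the 168 strong ones 71 did (42.3%, interval 34.7 to 50.1%), beside 40.2%, and 18 overlapped a peak. These intervals treat clusters as independent, which clusters of 1 gene are not. In the members 15 strong replicate 1 clusters, in 6 genes, lay over a replicate 2 cluster that was itself strong. Of these, 4 were outside the peak list, in HDAC6, SETD5 and HDAC7. No background share is given for these counts.

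**Figure D5:**
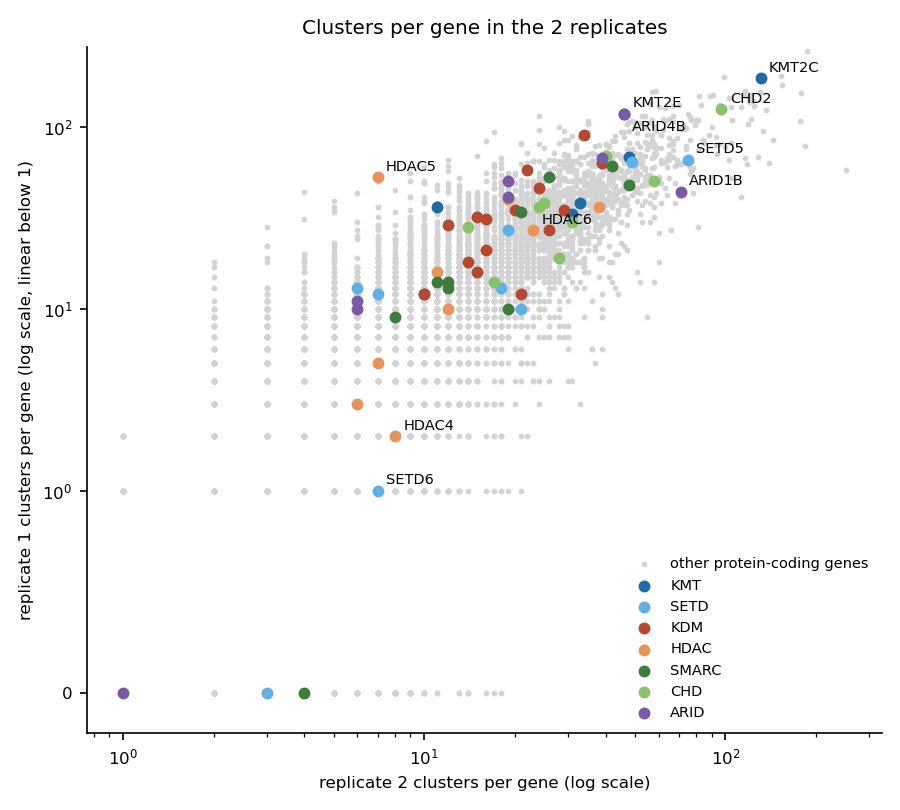
Each point is a protein-coding gene, with its number of replicate 2 clusters (horizontal, log scale) and replicate 1 clusters (vertical, log scale, linear below 1), and the 67 genes are colored by family. KMT2C, at 131 and 184, lies farthest to the upper right. HDAC5 lies high with 7 and 53, SETD6 low with 7 and 1, and 3 genes lie at 0 in replicate 1.

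The lowest log2 folds of members in the peak list were 3.05 in ARID4B, 3.07 in HDAC6 and 3.20 in KMT5A. The study kept only peaks with a log2 fold above 3, and the lowest in the whole list was 3.01. Among members without a peak, KDM5C, KMT2E and ARID1A had the strong replicate 1 clusters of highest −log10 p, at 11.2, 10.7 and 9.0 with log2 folds of 3.74, 4.51 and 5.14. These are values of replicate 1 alone and not of the peak list, and of the 3 clusters only that in KDM5C had a replicate 2 cluster over it. In all, 21 members had a strong replicate 1 cluster and no peak (31.3%), a count given without a background share.

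Of 80 other chromatin genes that are not members by name, listed as partners of the same complexes, other histone methyltransferases, acetyltransferases or bromodomain readers, all 80 had a replicate 2 cluster, with a median of 69.5 reads. A peak was found in 5 of them (6.25%), beside 4.52% of the background, and a strong replicate 1 cluster in 21 (26.2%), beside 18.5%. The 5 genes with a peak came from 5 of the 6 groups, with 1 each. HCFC1, a cofactor of the MLL and SETD1 complexes, had 3 peaks with log2 folds of 3.10 to 4.63. BRD9, the bromodomain subunit of a noncanonical BAF complex, had 2 peaks with log2 folds of 4.24 and 4.13, and BAZ2A, the partner of SMARCA5 in silencing ribosomal genes, had 2, of 4.61 and 3.71. GATAD2B of NuRD and the H3 methyltransferase EHMT1 had 1 each, of 3.27 and 4.79. The 16 histone acetyltransferases and bromodomain readers had 0 peaks, too few genes to read against a background of 4.52%, and 3 of them had a strong replicate 1 cluster.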

How the data were processed

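The 2 RBM17 eCLIP replicates and 1 input were grouped by their labels, with replicates numbered as in the sample descriptions (the titles number them 2 and 3). The authors ran an eCLIP pipeline, and the submitters' processing notes name cutadapt and STAR. The replicate 1 list has 137095 clusters, for which the authors deposited 2 values relative to the input, the −log10 p and the log2 fold. The replicate 2 list has 119066 clusters, with a p-value from the peak caller that the authors deposited unadjusted for the input, and a name made of an Ensembl gene and a read number. The 866 reproducible peaks were deposited with 2 unnamed columns, read as the −log10 p and log2 fold of the authors from their range and from the column order of replicate 1, and how the replicates were combined is not given in the sources used here. Positions were taken as hg19, since they extend to 249211903 on chromosome 1, which has 248956422 bases in hg38. Region annotations of peaks are those of the study. Sequences of bound intervals and the input's own reads were not analysed here.

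Genes came from GENCODE release 44 by Ensembl identifier. The identifiers of replicate 2 follow an older annotation, so a gene whose identifier has changed counts as having no cluster. Replicate 1 clusters and peaks were given to a gene when they overlapped its span of replicate 2 clusters on the same strand by at least 1 bp. There were 0 unused sample columns. Intervals of shares are 95% Clopper-Pearson intervals (exact, for counting error alone). With 2 replicates of 1 group no test between groups was possible, and lists are described by counts and medians beside the background. The members and lists were chosen with earlier results of these data known. Named genes were all members with a peak, the 10 with most reads, the 10 without a peak whose strong cluster had the highest −log10 p, those with no replicate 1 cluster, and listed chromatin genes with a peak. Other members named to complete a family were chosen after their values were seen. The alternatives were stricter limits, other overlap rules, leaving out a replicate and, chosen after seeing the data, a minimum of 100 reads per gene, other 5′ windows and leaving out CHD2 and ARID4B. Computation used Python 3.11.15, pandas 2.3.3, numpy 2.4.6, scipy 1.17.1 and matplotlib 3.10.9. The overlap and assignment steps were tested on simulated data, where all 500 genes were assigned as made.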

Additional observations from a re-analysis of the deposited data

How the results depend on the processing

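The counts of peaks depended on the limit. Members with a peak went from 9 to 4 at a minimum log2 fold of 4 and to 4 at a minimum −log10 p of 5, and the 18 peaks to 6 and 8. Leaving out one replicate at a time and counting strong clusters of the other in place of peaks gave 24 to 29 members and 111 to 168 clusters, the lower values from replicate 2 and the higher from replicate 1, since either alone lacks the requirement of both. Members with a strong replicate 2 cluster went from 24 to 7 at p of at most 1e-20, and the median replicate 2 reads from 100.0 to 40 over clusters with p up to 1e-3. The share of replicate 1 clusters below the input went from 5.17% to 0.0% among those with a −log10 p of at least 3. Clusters below the input at SCARNA11 and SNORD8 had a −log10 p of 0.0, and none below the input reached 3. That limit removes such clusters, so the change says nothing about the share. The overlap between replicates went from 586 to 0 clusters on the opposite strand. Clusters were given to a gene only on its own strand, which fixes this 0 in advance, so it says nothing about the overlap. The share of strong clusters near the 5′ end went from 17.3% to 10.7% within 500 bases, beside 15.7% in the background. The other alternatives stayed within 1.5 times, or within the interval, of the value reported. No paired analysis was possible because the result comes from no test and the input is a single library. The unknown depth of replicate 1, and the missing input comparison of replicate 2, limit every comparison of the 2 at one site.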
